A study of Mus musculus with 31 samples.

Results

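The response of mouse embryonic fibroblasts (MEFs) to Oct4, Sox2 and Klf4 without c-Myc was followed on 11 of the 31 arrays of a reprogramming time course. The members are the 4 arrays titled as 3 factors (3F), 1 each on days 3, 5, 8 and 12, and the 7 GFP arrays of the same days, 2 each on days 3, 5 and 8 and 1 on day 12. They were chosen by their titles and days, and no measured value entered the choice. Both arms were MEFs kept in DMEM with foetal bovine serum and infected at day 0. The 3F cells received retroviruses for Oct4, Sox2 and Klf4, and the GFP cells a GFP retrovirus as control. The other arrays used here are those of MEFs given the same 3 factors plus c-Myc (4F), 7 on these days, and 2 of uninfected MEFs at day 0. In 1 label field the 3F cells are called infected with 4 factors, with Oct4, Sox2 and Klf4 alone listed. Titles and descriptions say 3, and every 3F value rests on that reading. Each array gives log2 signals, and 19938 genes with a single symbol were compared. The labels name neither a mouse strain nor sorting of infected cells, so an array reads the whole culture.

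Oct4, Sox2 and Klf4 are transcription factors that together can turn a fibroblast into a pluripotent stem cell, and c-Myc, a general driver of growth and ribosome production, speeds the process but is not strictly needed. The usual course has an early phase, in which fibroblast genes are shut off and epithelial genes come on, and a late phase, in which a few cells activate the cells' own pluripotency genes such as Nanog. The comparison of 3F with GFP is meant to show what the trio does over a control infection. That of 3F with 4F is meant to show what goes with adding c-Myc, within the limits of the array sets given below. In RNA from a whole culture, fewer cells of a type and less RNA per cell cannot be told apart.

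The 11 arrays had medians of 6.07 to 6.14. In a principal component analysis of them, the first component held 49.9% of the variance. The 3F arrays scored -32.61, -36.2, -36.26 and -51.05 on days 3, 5, 8 and 12 and the GFP arrays 4.15 to 37.03, so the arms lay apart on it. Of 13 fibroblast markers measured, the summed level, given as a mean log2 signal per marker, was 11.07 to 11.86 in GFP and 10.18 to 10.81 in 3F, so both arms held the labelled cell type's transcripts, with the ranges apart. All 3F arrays, and GFP only on day 12, belong to the set of arrays without a replicate number. Arm and array set therefore cannot be told apart on days 3, 5 and 8. Arrays of replicate 1 were labelled from 120 ng of RNA and all others from 300 ng. Since 3F has 1 array a day, its days stand in for replicates in the limma fit over 4 days, whose spread then also holds changes of the difference with time. Each 3F minus GFP difference below is on the log2 scale with its standard error, and a gene was called where limma's p, adjusted by Benjamini-Hochberg across the 19938 genes, was under 0.05.

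The delivered factors themselves were read first, as a check of the labels. Pou5f1 (Oct4) gave 6.36, 6.3, 7.83 and 10.2 in 3F on days 3, 5, 8 and 12, against a lowest, median and highest of 5.22, 5.41 and 5.55 in GFP. Every 3F array thus lay above every GFP array, most of all on day 12, and the difference of 2.10 ± 0.50 was called (limma adjusted p = 0.022). Without the 3F array of day 8 that call was lost (adjusted p = 0.1). Sox2 gave 5.86, 6.16, 6.27 and 9.2 in 3F against 5.31, 5.41 and 5.57 in GFP, again without overlap. Its difference of 1.29 ± 0.46 did not pass the test (limma adjusted p = 0.094), with 3.89 on day 12 alone. Klf4 gave 8.04, 7.55, 8.49 and 7.69 in 3F against 7.67, 7.96 and 8.15 in GFP, so the arms overlapped. The 95% interval of its difference ran from -0.23 to 0.40. Myc, which 3F did not receive, gave 9.04, 8.26, 9.37 and 7.95 in 3F against 6.58, 7.75 and 9.72 in GFP, also overlapping. The 4F means for Myc on those days, 7.47, 6.73, 7.45 and 7.52, lay below the 3F values, although 4F cells had received a Myc virus (3F minus 4F 1.48, limma adjusted p = 0.075). Klf4 was higher in 3F than in 4F by 0.70 (limma adjusted p = 0.027). The sources used here do not say which part of each transcript the probe sets read, so these rows may or may not count the viral copies.

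Over the 4 days, 3254 genes were called between 3F and GFP (limma), 16.3% of all genes. Of these, 1751 were higher in 3F (8.78% of all genes) and 1503 lower (7.54%). The difference had 1 sign on all 4 days for 3219 of the 3254, and for 39.7% of all genes. The fit selects genes for a steady difference over these same days, so this agreement largely follows from the selection. A difference of at least 2-fold was found for 481 of the higher and 329 of the lower genes. For 1083 of the higher genes every 3F array lay above every GFP array, and for 924 of the lower genes every one lay below. Such separation held for 11.5% of all genes, called or not. Relative to uninfected cells, 3F stood further from day 0 than GFP did for 1150 of the 1751 higher genes. Among the lower genes the opposite was more frequent, with GFP the arm further from day 0 for 849 of 1503 (56.5%). The median change from day 0 of these lower genes was -0.24 in 3F and 0.33 in GFP. The day 0 arrays are replicates 1 and 2, as are the GFP arrays of days 3, 5 and 8, whereas 3F is unnumbered. Distance from day 0 therefore cannot be told apart from array set, and its share over all genes was not counted. Leaving out the 3F array of day 8 reduced the 3254 calls to 1769, and leaving out that of day 5 to 2058.

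The 12 largest rises were already above GFP in 3F on day 3, and none is in the pluripotency list. Akr1c18, the enzyme that inactivates progesterone, gave 12.47, 12.58, 12.43 and 11.76 in 3F on days 3, 5, 8 and 12. In GFP its lowest, median and highest values were 5.13, 5.38 and 5.83, so the arms lay far apart, and day 0 stood at 5.42. The difference was 6.99 ± 0.13 (limma adjusted p = 5.9e-08). Sostdc1, a secreted antagonist of BMP and Wnt ligands, gave 11.52, 11.95, 11.74 and 11.58 against 5.34, 5.51 and 6.28, a difference of 6.09 ± 0.15 (limma adjusted p = 3.5e-07). Aldh3a1, an aldehyde dehydrogenase, gave 10.34, 10.42, 10.66 and 10.94 against 5.64, 5.74 and 5.94, a difference of 4.77 ± 0.09. For both genes the 3F arrays stayed within a narrow band from day 3 to day 12.

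Dpp4, a peptidase of the cell surface, gave 9.42, 10.43, 11.24 and 11.21 in 3F against 5.6, 6.02 and 6.46 in GFP (4.47 ± 0.20, limma adjusted p = 9.5e-06). Gna14, an alpha subunit of the Gq class of G proteins, gave 8.89, 9.26, 9.52 and 9.66 against 5.13, 5.18 and 5.34 (4.10 ± 0.09). Gpr50, an orphan receptor related to the melatonin receptors, gave 10.52, 9.33, 8.34 and 7.92 against 5.01, 5.15 and 5.43 (3.93 ± 0.34). It was thus highest on day 3, and its difference was 5.32 on that day and 2.92 on day 12. The remaining 6 of the 12 largest rises lay between 3.66 and 4.50. They were Sbspon, the phosphatase gene Dusp14, the sialyltransferase gene St3gal6, Tmem229b, the thyroid hormone binding protein gene Crym, and Nt5e, which encodes the ectonucleotidase CD73. In all 12, each 3F array lay above each GFP array, and all 12 kept the call when any 1 of the 11 arrays was left out. Both largely follow from picking the largest called differences.

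Promoter letters are shown for 3 of these early genes and, for contrast, for Nanog and Zfp42, pluripotency genes whose 3F values stayed close to GFP on days 3 and 5. Each line holds the 250 bases before the annotated start, 5′ to 3′ in the gene's direction, from RefSeq on GRCm38.p6. Searched were ATGCAAA (core of the octamer read by POU factors such as Oct4), CATTGT (SOX factors) and GGGTGTGG (KLF factors), on both strands. Matches are in capitals, and a motif on the other strand reads as its reverse complement, such as CCACACCC for the KLF letters. Akr1c18 is at chr13:4150647-4150896 on the minus strand, Dpp4 at chr2:62412232-62412481 (minus), Gna14 at chr19:16435417-16435666 (plus), Nanog at chr6:122707315-122707564 (plus) and Zfp42 at chr8:43307010-43307259 (minus).
Akr1c18: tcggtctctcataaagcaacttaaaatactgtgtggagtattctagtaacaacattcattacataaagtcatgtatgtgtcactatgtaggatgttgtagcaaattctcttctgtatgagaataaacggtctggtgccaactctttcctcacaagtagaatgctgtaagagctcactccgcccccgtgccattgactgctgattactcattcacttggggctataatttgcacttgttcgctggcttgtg
Dpp4: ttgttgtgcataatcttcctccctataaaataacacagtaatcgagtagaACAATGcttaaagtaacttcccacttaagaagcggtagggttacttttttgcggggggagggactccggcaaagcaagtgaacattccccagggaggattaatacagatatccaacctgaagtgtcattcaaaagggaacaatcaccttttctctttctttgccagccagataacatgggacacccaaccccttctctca
Gna14: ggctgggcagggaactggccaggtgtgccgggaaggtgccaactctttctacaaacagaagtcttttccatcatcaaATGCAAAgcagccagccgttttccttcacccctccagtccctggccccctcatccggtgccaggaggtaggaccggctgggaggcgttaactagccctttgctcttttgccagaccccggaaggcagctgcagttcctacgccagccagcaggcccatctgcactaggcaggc
Nanog: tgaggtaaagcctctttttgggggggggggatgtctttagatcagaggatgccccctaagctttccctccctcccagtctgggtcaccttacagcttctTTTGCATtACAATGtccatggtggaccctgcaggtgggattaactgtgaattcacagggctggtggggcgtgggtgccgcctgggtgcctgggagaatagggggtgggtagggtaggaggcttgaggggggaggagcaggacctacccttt
Zfp42: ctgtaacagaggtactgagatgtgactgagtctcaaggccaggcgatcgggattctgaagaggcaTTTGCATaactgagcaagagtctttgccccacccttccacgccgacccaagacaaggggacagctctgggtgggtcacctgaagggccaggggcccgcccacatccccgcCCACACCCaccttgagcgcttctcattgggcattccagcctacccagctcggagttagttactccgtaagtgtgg

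Nanog holds an octamer from base -151 and a SOX match from -143 relative to the start of the printed window, separated by a single base. Relative to its other annotated start, the same pair lies at -75 and -67. Zfp42 holds an octamer from -185 and a KLF match from -75. Of the genes from the largest rises, Gna14 holds an octamer from -173 and Dpp4 a SOX match from -200. Akr1c18 holds no match to any of the 3 motifs in this window. Over the 300-base RefSeq windows (250 before to 50 after the start), the octamer stood in 4.14% of 19116 windows of tested genes, in 4.21% of windows of genes higher in 3F and in 3.11% of those lower. The SOX letters stood in 10.1%, 8.15% and 5.58%, and the KLF letters in 3.74%, 3.25% and 4.06%. A window was found for 15563 genes, among them 8 of the 12 largest rises and 10 of the 12 largest falls. The 10 windows of these rises held 1 octamer, 1 SOX match and no KLF match, so those of Gna14 and Dpp4 were the only ones. In the 12 windows of the falls there was no match. These genes were picked for printing with their letters and values in view, and a match is a description of letters only.

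**Figure D1:**
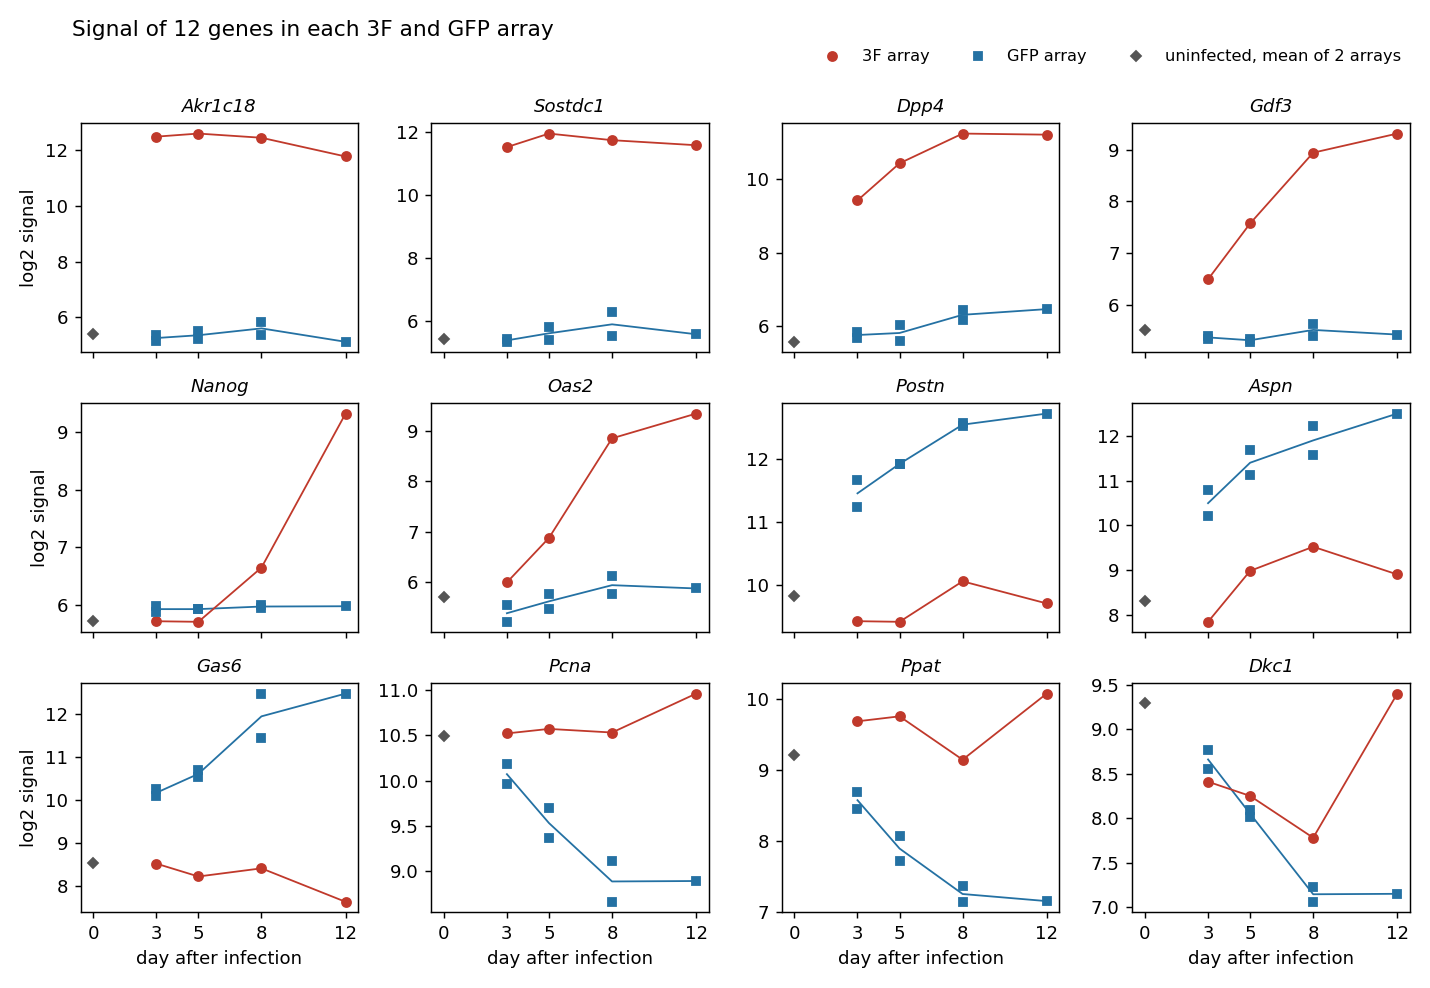
Log2 signal (vertical axis) against day after infection (horizontal axis) for 12 genes, with each 3F array as a circle, each GFP array as a square and the mean of the 2 uninfected arrays as a diamond. Lines join the 3F arrays and the GFP means. Akr1c18, Sostdc1 and Dpp4 are apart from GFP by day 3, Nanog leaves GFP late and stands at 9.32 on day 12, and Postn and Aspn lie below GFP on every day.

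The 12 largest falls included genes of secreted and matrix proteins, receptors and enzymes. Gas6, a ligand of the TAM receptor kinases, gave 8.51, 8.21, 8.4 and 7.62 in 3F against 10.08, 10.68 and 12.47 in GFP, with day 0 at 8.52. The arms did not overlap, 3F was close to or below the uninfected level, and the difference was -2.99 ± 0.43 (limma adjusted p = 0.0024). Tnmd, a tendon membrane protein, gave 7.13, 6.98, 7.26 and 7.0 against 8.81, 9.84 and 10.94 (-2.96 ± 0.27). Mfap4, a microfibril-associated protein, gave 6.7, 6.86, 7.36 and 7.17 against 8.03, 9.89 and 10.98 (-2.88 ± 0.40). Aspn, the small proteoglycan asporin, gave 7.84, 8.98, 9.52 and 8.9 against 10.21, 11.58 and 12.5, so that it stood above its day 0 level of 8.3 on most days and still below GFP on all (-2.71 ± 0.23). Cxcl12, the chemokine that binds Cxcr4, gave 7.28, 7.49, 8.49 and 8.01 against 9.36, 10.35 and 11.45 (-2.67 ± 0.21). Mest, an imprinted gene, was the exception in overlap, since 1 GFP array of day 3 (8.53) lay below the 3F array of day 8 (9.37). The other 6 were Cyp7b1, an oxysterol hydroxylase, Dpt (dermatopontin), the prostaglandin F receptor gene Ptgfr, the collagenase and stromelysin genes Mmp13 and Mmp3, and the matrix gene Ltbp2, between -2.61 and -2.75. Of the 12 falls, Mmp3 alone lost its call with an array left out (adjusted p = 0.071 without the 3F array of day 8).

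Fibrillar collagens and other matrix proteins were lower in 3F as a group. Of 38 measured, 31 were lower (81.6%, against 7.54% of all genes) and 1 higher, with a median difference of -1.23 against -0.03 over all genes. Postn, the matrix protein periostin, gave 9.43, 9.42, 10.06 and 9.71 in 3F against 11.24, 11.92 and 12.71 in GFP, without overlap, and fell by 2.46 relative to GFP (limma adjusted p = 2.7e-05). Col1a1, the main chain of type I collagen, gave 12.5, 12.57, 12.34 and 11.96 against 13.18, 13.56 and 13.78 (-1.13, limma adjusted p = 0.002). It was therefore near its day 0 level of 12.6 in 3F and above it in GFP. Across the list the median change from day 0 was -0.05, 0.02, 0.28 and 0.06 in 3F on days 3, 5, 8 and 12, and 0.91, 1.06, 1.21 and 1.46 in GFP. The higher member was Fbln5, an elastic fibre protein, which gave 11.96, 11.89, 11.36 and 10.91 against 10.59, 10.92 and 11.28 (0.62 ± 0.14). Its arms overlapped, and the call was lost without the 3F array of day 3, 5 or 8 (adjusted p = 0.061, 0.075 and 0.073). Of the 13 fibroblast markers, which share members with the matrix list, 10 were lower (76.9%). Pdgfra, a growth factor receptor of fibroblasts, fell by 2.04, while Vim, S100a4 and Fap, with differences of 0.20, -0.30 and 0.31, were not called. The matrix count lay between 26 and 32 with any array left out.

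Among regulators of the mesenchymal state, 12 of 30 were lower in 3F (40%) and 1 higher, with a median of -0.38. Snai1, a repressor of epithelial genes, gave 7.35, 7.09, 7.63 and 6.86 in 3F against 8.2, 8.6 and 8.98 in GFP and fell by 1.33 relative to GFP (limma adjusted p = 0.00095). Twist2, Zeb1, Snai2 and Prrx2, also transcription factors of mesenchymal cells, were lower by differences of -1.06, -1.0, -1.15 and -1.20. The calls of Snai2 and Prrx2 were lost without the 3F array of day 8 (adjusted p = 0.095 and 0.073), as was that of Zeb1 (0.058), and without that array the list held 5 lower genes. Meox2, a homeobox gene, went the other way, with 8.88, 9.42, 8.67 and 9.32 in 3F against 6.06, 7.08 and 7.78 in GFP (2.04 ± 0.32, limma adjusted p = 0.0036). Targets of TGF-beta and YAP gave 6 lower (22.2%, against 7.54% of all genes) and 1 higher (3.7%, against 8.78%) of 27, among them Itga11, a collagen receptor subunit, at -2.39 and the ligand genes Tgfb3 and Tgfb2 at -1.84 and -0.86. Contractile and serum response genes gave 5 lower (17.9%) and 2 higher (7.14%) of 28. With the RNA amount as a replicate block 11 were lower and 1 higher, and among 300 ng arrays 13 and 0. Tpm2, Smtn, Actn1 and Myh10, of the actin and myosin apparatus, were lower by -0.85, -0.78, -0.61 and -0.60, whereas the immediate early gene Fos was higher by 0.88. The 5 lower became 2 without the 3F array of day 5, 8 or 12 and 10 without GFP day 8 replicate 1, and the 2 higher became 0 without 3F day 5 or 8. Left-out arrays ended the calls of Tpm2, Actn1, Fos and Tgfb2, with adjusted p up to 0.13, 0.089, 0.1 and 0.14.

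Epithelial junction genes were higher in fewer members, and their median left zero late. Of 44 measured, 11 were higher (25%, against 8.78% of all genes) and 1 lower (2.27%, against 7.54%). The day medians were -0.01, 0.07, 0.15 and 1.09 on days 3, 5, 8 and 12. Cxadr, a tight junction protein and virus receptor, gave 8.26, 8.5, 8.69 and 8.64 in 3F against 6.33, 6.59 and 6.87 in GFP (1.91 ± 0.12, limma adjusted p = 3.7e-05). Dsp, the desmosome protein desmoplakin, gave 6.95, 7.18, 7.1 and 7.65 against 5.61, 5.69 and 5.87 (1.47 ± 0.11), so both were apart from GFP by day 3. Jup (plakoglobin) was higher by 1.26 and Spint2, a protease inhibitor of epithelia, by 1.44, the latter call being lost without the 3F array of day 8 (adjusted p = 0.12). The defining genes of the class came later and were not called over the 4 days. The slope over days, given below, did call Cdh1 and Epcam. Cdh1 (E-cadherin) gave 5.96, 5.84, 7.15 and 8.67 in 3F against 5.7, 5.83 and 6.07 in GFP (limma adjusted p = 0.12). Epcam gave 5.62, 5.75, 7.32 and 9.8 against 5.32, 5.45 and 5.48 (limma adjusted p = 0.096). Both stood close to GFP on days 3 and 5 and apart on day 8, with day 12 differences of 2.84 and 4.34. The lower member was Cdh3 (P-cadherin), which gave 6.43, 6.05, 6.04 and 6.46 against 7.6, 8.2 and 8.55 and fell by 1.93. Without the 3F array of day 8 the count of higher members was 6.

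In the pluripotency network, 7 of 40 genes were higher in 3F (17.5%, against 8.78% of all genes) and none lower. The day medians were -0.04, 0.00, 0.03 and 1.25, and on day 12, where 5.62% of all genes were at least 2-fold higher, 23 of the 40 were. Gdf3, a TGF-beta family ligand of stem cells, gave 6.49, 7.57, 8.94 and 9.31 in 3F against 5.28, 5.39 and 5.63 in GFP (2.59 ± 0.37, limma adjusted p = 0.0023). L1td1, an RNA-binding protein of stem cells, gave 7.12, 7.81, 7.98 and 9.46 against 5.55, 5.71 and 5.97 (2.26 ± 0.29). Fbxo15, an Oct4 target, gave 5.08, 6.18, 7.04 and 8.12 against 4.66, 4.75 and 4.8 (1.77 ± 0.38). All 3 were above GFP from day 3 and highest on day 12. The others called were Tfcp2l1, Rif1, Mybl2 and Sall1, at 1.44, 1.33, 1.30 and 0.54. Leaving out the 3F array of day 8 ended the calls of Fbxo15 and Tfcp2l1 (adjusted p = 0.082 and 0.081) and left 3 of the 40 called. Mybl2 and Sall1 lost theirs with any of 9 arrays left out (adjusted p up to 0.16 and 0.092).

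Most core genes of the network stood out from GFP on the last day. Nanog gave 5.72, 5.71, 6.65 and 9.32 in 3F against 5.88, 5.95 and 6.0 in GFP, below GFP on days 3 and 5 and above it on days 8 and 12. Its mean difference was 0.73, with a 95% interval of -0.35 to 1.80 (limma adjusted p = 0.36). Tdgf1, a Nodal co-receptor, gave 5.55, 5.56, 6.87 and 10.53 against 5.0, 5.5 and 5.95, and Zfp42 (Rex1) gave 5.05, 5.2, 5.54 and 7.59 against 4.82, 5.08 and 6.01. The arms overlapped for both, which were not called. On day 12 the differences were 5.22 for Tdgf1, 4.39 for Dppa5a, 4.17 for Nr0b1, 2.92 for Dnmt3l, 2.87 for Dppa2 and 2.77 for Zfp42. That day has 1 array in each arm, so these have no test.

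**Figure D2:**
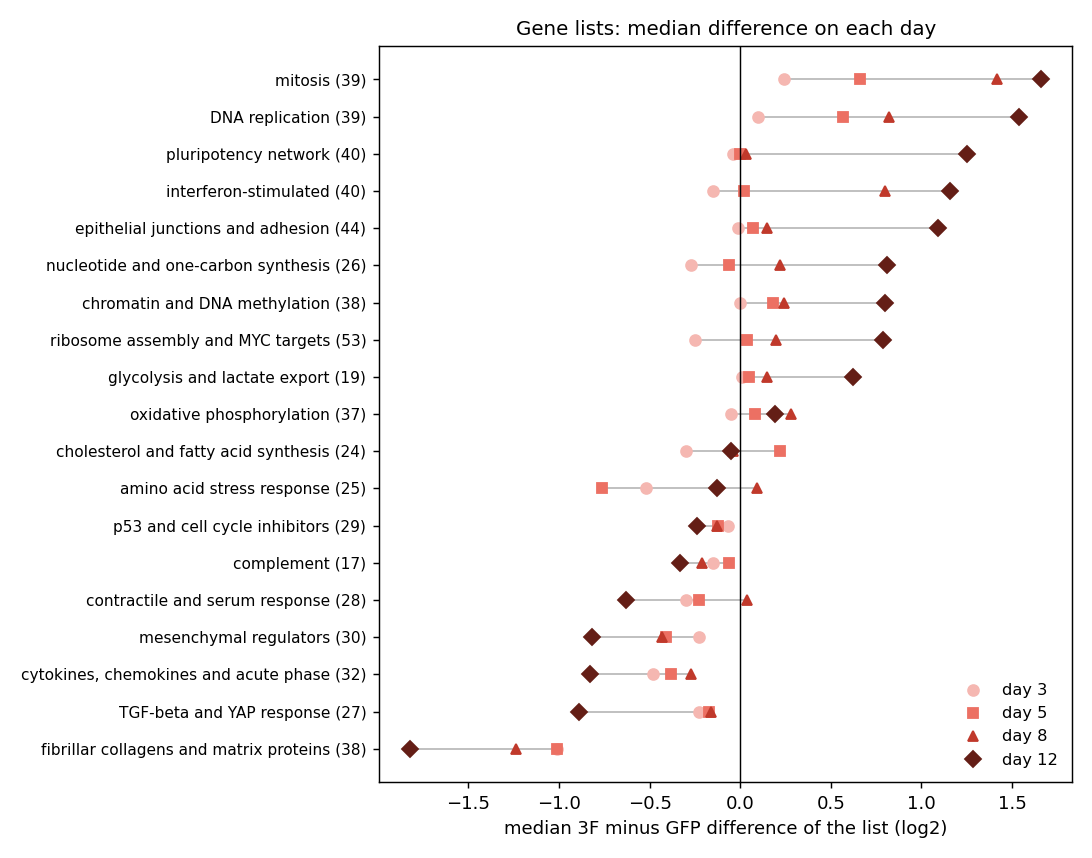
Median 3F minus GFP log2 difference (horizontal axis) of the measured members of 19 gene lists (vertical axis) on days 3, 5, 8 and 12, 1 marker per day. Matrix proteins lie at -1.01 to -1.82 on every day, whereas the pluripotency and epithelial medians leave zero only on day 12, at 1.25 and 1.09.

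Cell division genes were higher in 3F than in GFP, and relative to day 0 it was GFP that lay lower. Of 39 DNA replication genes 19 were higher (48.7%, against 8.78% of all genes) and none lower, with a median of 0.70. Of 39 mitosis genes 19 were likewise higher (48.7%) and none lower, with a median of 0.94. Relative to day 0, the mitosis median was -0.10, -0.09, -0.50 and 0.10 in 3F on days 3, 5, 8 and 12, and -0.32, -0.77, -1.81 and -1.66 in GFP. For replication it was -0.30, -0.30, -0.60 and -0.06 in 3F, and -0.45, -0.83, -1.50 and -1.46 in GFP. Pcna, the sliding clamp of DNA polymerase, gave 10.52, 10.57, 10.53 and 10.96 in 3F against 8.66, 9.36 and 10.18 in GFP, without overlap, beside 10.49 at day 0 (1.25 ± 0.23, limma adjusted p = 0.0072). Ccna2 (cyclin A2) gave 9.84, 9.85, 9.57 and 10.1 against 6.79, 8.48 and 9.52, beside 9.88 at day 0 (1.44 ± 0.35). In both, 3F stayed near the uninfected level while GFP ranged below it. Rrm2, a subunit of ribonucleotide reductase, was higher by 1.60 with overlapping arms, and Nusap1 and Ect2, of the spindle and of cytokinesis, by 1.35 and 1.56. Foxm1, a transcription factor of mitotic genes, was higher by 1.10. The calls of Ccna2, Rrm2 and Ect2 were lost without the 3F array of day 8 (adjusted p = 0.12, 0.072 and 0.068).

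These 2 counts depended on single arrays. With 1 array left out, the replication count was 1 (3F day 8), 5 (3F day 5), 8 (day 12 of either arm), 7 (GFP day 5 replicate 2), 12 (GFP day 8 replicate 1) and 32 (3F day 3). The mitosis count was 3, 7, 5, 6, 15 and 30 in the same order, and 12 without GFP day 3 replicate 1. With the RNA amount as a block it was 7, and among arrays of 300 ng alone the counts were 1 for replication and 6 for mitosis. Both medians stayed above zero in every alternative run, and the replication median lay between 0.53 and 0.88 with any array left out.

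The list of p53 targets and cell cycle inhibitors, which also holds genes that are not brakes of the cycle, gave 4 of 29 higher and 4 lower. That is 13.8% each way, against 8.78% higher and 7.54% lower over all genes. Rb1, the retinoblastoma protein gene, gave 9.82, 9.71, 9.3 and 9.35 in 3F against 6.52, 6.87 and 7.12 in GFP, far apart on every day (2.73 ± 0.12, limma adjusted p = 1.2e-05). Ccnd1 (cyclin D1, a driver of the cycle) and the inhibitor genes Cdkn2c and Cdkn2d were higher by 1.12, 0.82 and 0.72. The call of Cdkn2c was lost without the 3F array of day 5 or 8 (adjusted p = 0.066 and 0.065). Cdkn2b (p15) gave 8.72, 8.39, 8.23 and 7.44 against 8.89, 9.57 and 9.75, lower without overlap (-1.23 ± 0.25, limma adjusted p = 0.011). Cdkn2a, the gene of p16 and p19Arf, gave 7.25, 7.46, 7.48 and 7.17 against 7.4, 8.05 and 8.61, lower with overlap (-0.67, limma adjusted p = 0.037). Igfbp5, a secreted binder of insulin-like growth factors, was lower by -1.79. Without the 3F array of day 8 the count of lower members was 1, since the calls of Cdkn2a and Cdkn2b were among those lost (adjusted p = 0.13 and 0.058). Without GFP day 5 replicate 2 it was 2.

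Chromatin regulators were higher in 11 of 38 (28.9%, against 8.78% of all genes) and lower in none, with a median of 0.37. Suz12 and Ezh2, subunits of Polycomb complex PRC2, gave 8.85, 8.98, 9.23 and 9.97, and 9.27, 9.21, 8.75 and 9.75, in 3F. In GFP they gave 7.7, 7.98 and 8.48, and 7.47, 8.26 and 8.82. The arms overlapped for Ezh2 and not for Suz12, and the difference was 1.14 for Ezh2 and 1.17 ± 0.21 for Suz12. Tet2, an enzyme that oxidizes methylated DNA, was higher by 1.11, Jarid2, a PRC2 partner, by 1.03, and Kdm6a, a demethylase of the Polycomb mark, by 0.65. Uhrf1 and Hells, which serve maintenance of DNA methylation, were higher by 1.29 and 1.36. The count was 6 without the 3F array of day 8, and 7 without that of day 5 or GFP day 5 replicate 2. Among 300 ng arrays alone it was 4, and Ezh2 and Suz12 were not called (limma adjusted p = 0.086 and 0.067). Uhrf1, Hells and Jarid2 lost their calls without 3F day 8 (adjusted p = 0.14, 0.13 and 0.086).

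Few ribosome assembly genes and MYC targets were called over the 4 days, and day 12 stood apart. Of 53, 2 were higher (3.77%, against 8.78% of all genes) and 1 lower (1.89%, against 7.54%). The day medians were -0.25, 0.04, 0.20 and 0.79, and 19 of the 53 were at least 2-fold higher on day 12, against 5.62% of all genes. With the 3 array sets as a block, in which 3F meets GFP through day 12 alone, 28 were called higher. The list also holds the replication protein gene Rpa1. Ppat, the first enzyme of purine synthesis, was the clear exception, with 9.68, 9.75, 9.14 and 10.07 in 3F against 7.14, 7.71 and 8.69 in GFP (1.88 ± 0.23, limma adjusted p = 0.0011). The other called members were Rrs1 at 0.73, lost without the 3F array of day 5 (adjusted p = 0.12), and Cdk4 at -0.28, lost without 3F day 8 (adjusted p = 0.11). Dkc1 (dyskerin), which modifies ribosomal RNA, gave 8.41, 8.25, 7.78 and 9.4 against 7.06, 8.01 and 8.77, overlapping, and was not called (limma adjusted p = 0.24). The list's median change from day 0 was -0.66, -0.80, -1.12 and -0.47 in 3F and -0.40, -0.77, -1.27 and -1.39 in GFP. Both arms were thus below the uninfected level on every day.

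**Figure D3:**
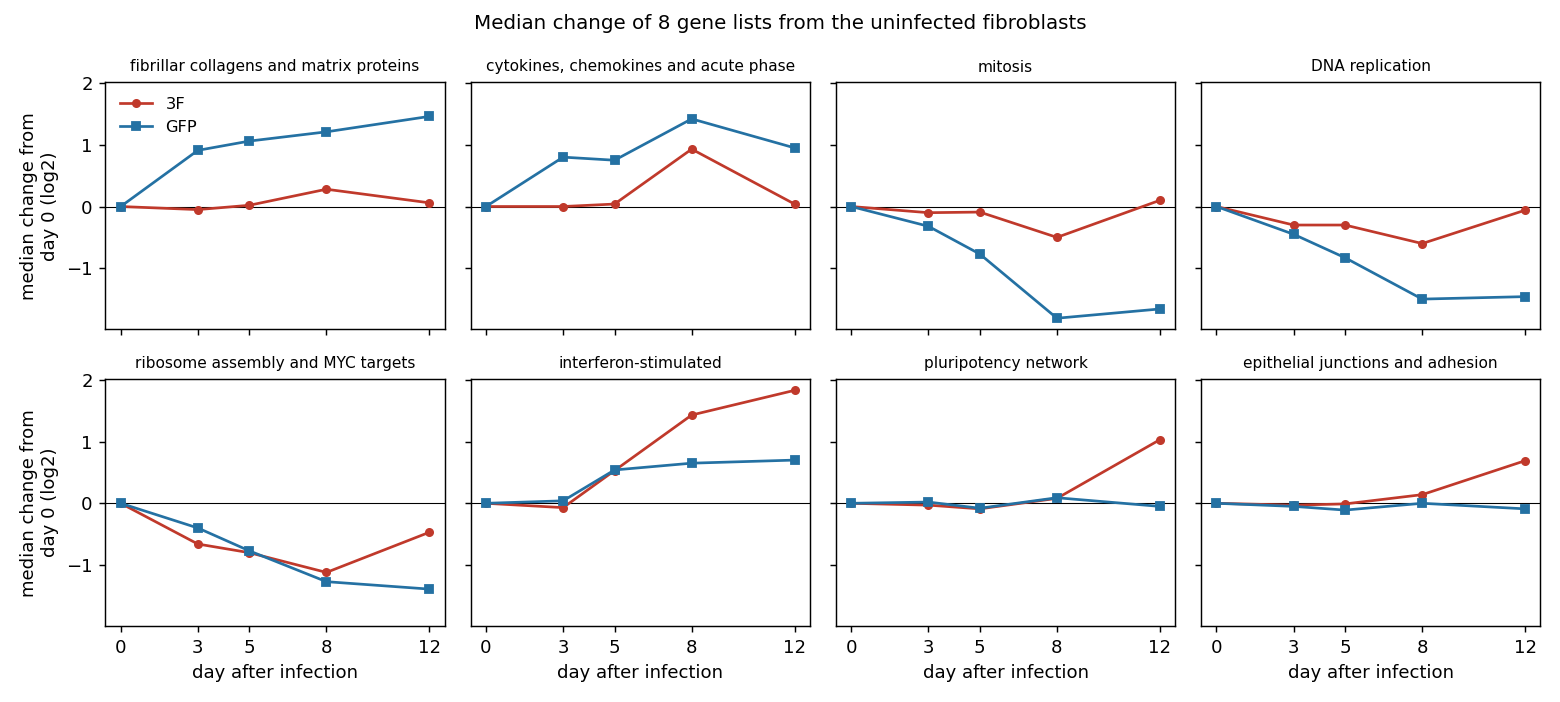
Median change of log2 signal from day 0 (vertical axis) for the measured members of 8 gene lists on days 3, 5, 8 and 12 (horizontal axis), 3F and GFP as separate lines. For mitosis 3F stays within -0.50 to 0.10 of day 0 while GFP reaches -1.81. For matrix proteins GFP reaches 1.46 while 3F stays within -0.05 to 0.28.

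Metabolic lists gave small counts of called genes. Of 26 genes of nucleotide and one-carbon synthesis 4 were higher (15.4%) and 5 lower (19.2%), against 8.78% and 7.54% of all genes. Without the 3F array of day 3 the higher were 7, without that of day 5 the lower were 3, and the block of 3 sets gave 8 and 1. Among the higher were Umps, Paics and Prps2, of pyrimidine, purine and ribose phosphate synthesis, at 0.82, 0.64 and 0.54. Aldh1l2, a mitochondrial folate enzyme, gave 6.28, 6.44, 6.26 and 6.06 in 3F against 7.13, 8.26 and 9.27 in GFP, lower without overlap (-1.84 ± 0.37). Phgdh, the first step of serine synthesis, was lower by -0.82. Of 19 glycolysis genes 3 were higher (15.8%) and 1 lower. Slc2a3 (glucose transporter GLUT3) gave 7.81, 7.74, 8.32 and 10.46 against 6.16, 6.34 and 6.63 (2.10 ± 0.40, limma adjusted p = 0.008), and Aldoc and Pfkp were higher by 1.62 and 1.22. Slc16a1, a lactate carrier, gave 8.39, 8.34, 8.37 and 8.72 against 9.04, 10.37 and 11.58, lower without overlap (-2.07 ± 0.32). Of 37 oxidative phosphorylation genes 3 were higher (8.11%), such as Ndufb6 at 0.90, and cholesterol and fatty acid synthesis gave 2 higher (8.33%) and 1 lower of 24, both at about the 8.78% of all genes. The amino acid stress response gave 4 lower of 25 (16%), among them the glutamine carrier Slc38a2 at -0.91. Without the 3F array of day 8 the calls of Aldoc and Pfkp were lost (adjusted p = 0.15 and 0.07), leaving 1 glycolysis gene, and 1 oxidative phosphorylation gene was left without 3F day 5, 8 or 12. Without 3F day 5 the calls of Aldh1l2 and Prps2 were lost (adjusted p = 0.059 and 0.061).

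Several secreted signals of inflammation were lower in 3F. Of 32 cytokines, chemokines and acute phase genes 8 were lower (25%, against 7.54% of all genes) and 1 higher, with a median of -0.51. Cxcl5, a neutrophil chemokine, gave 8.8, 9.95, 10.87 and 9.4 in 3F against 11.2, 11.92 and 12.82 in GFP, without overlap (-2.37 ± 0.26, limma adjusted p = 0.00067). Serpina3n, Ccl11, Lcn2, Saa3 and Cxcl1 were lower by differences of -2.42, -2.11, -1.95, -1.85 and -1.49. Ccl8, a monocyte chemokine, went the other way, with 7.97, 8.99, 10.46 and 9.54 against 6.33, 6.78 and 8.61 (1.95 ± 0.29, limma adjusted p = 0.003), its arms overlapping. Of 17 complement genes 1 was lower, C2 at -1.02. The call of Lcn2 ended with any of 7 arrays left out (adjusted p up to 0.17).

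Of 40 interferon-stimulated genes 5 were higher (12.5%, near the 8.78% of all genes) and none lower, so the list as a whole did not stand out over the 4 days. The day medians were -0.15, 0.02, 0.80 and 1.16, and 27 of the 40 were at least 2-fold higher on day 12, without a test, against 5.62% of all genes. Oas2, a sensor of double-stranded RNA, gave 6.0, 6.88, 8.85 and 9.34 in 3F against 5.22, 5.77 and 6.12 in GFP, within the GFP range on day 3 and well above it later (1.97 ± 0.41, limma adjusted p = 0.012). Zbp1, a sensor of Z-form nucleic acids, gave 6.44, 7.99, 9.46 and 9.27 against 5.72, 6.44 and 6.9 (1.80 ± 0.28). Irf7, the interferon response regulator, gave 6.39, 7.69, 9.6 and 9.18 and was not called (1.12, limma adjusted p = 0.056). The list's median change from day 0 was 0.04, 0.54, 0.65 and 0.70 in GFP and -0.07, 0.53, 1.43 and 1.83 in 3F. Without the 3F array of day 8 the call of Oas2 was lost (adjusted p = 0.068) and 2 of the 40 were called. Without that of day 3 the count was 8.

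Day by day, more genes were called on later days. In the limma fit of group means, 652 genes were called on day 3 (3.27%), 978 on day 5 (4.91%) and 2086 on day 8 (10.5%). Higher and lower genes numbered 449 (2.25%) and 203 (1.02%) on day 3, 622 (3.12%) and 356 (1.79%) on day 5, and 1149 (5.76%) and 937 (4.7%) on day 8. With the RNA amount as a block, which pools replicate 2 with the unnumbered arrays, these totals were 988, 1506 and 3214. They were 307, 588 and 1333 without GFP replicate 1 of the same day. On day 12, with no test, 2022 genes were at least 2-fold apart (10.1%), 1120 higher (5.62%) and 902 lower (4.52%). Of the 3254 genes called over the 4 days, 387 were also called on each of days 3, 5 and 8. On day 12, 3235 had the same sign, but the day 12 arrays of both arms entered the fit that called them. That agreement was largely set by the selection, so it is no separate check of the array sets. Mitosis gave 27 of 39 and replication 23 of 39 called higher on day 8.

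Whether the difference itself changed between days 3 and 5 and days 8 and 12 was tested in 1 limma model, which called 3 genes higher late (0.015% of all genes) and none lower, with 2744 genes at an unadjusted p under 0.05. They were Ifi27l2a, an interferon-stimulated gene, Tac2, a tachykinin precursor, and AA467197, with changes of 1.96, 1.41 and 2.35. Leaving out the 3F array of day 3 or 12, GFP day 5 replicate 2 or GFP day 12 ended all 3 calls. Leaving out the 3F array of day 8 gave 449 calls, that of day 5 gave 14, and leaving out GFP day 8 replicate 2 gave 54. With the change as a slope over days, 829 genes were called (4.16%), 467 rising (2.34%) and 362 falling (1.82%). Among the rising were 14 of 40 pluripotency genes, 13 of 44 epithelial junction genes and 15 of 40 interferon-stimulated genes. So were 21 of 53 ribosome assembly genes and 15 of 39 replication genes, but none of 39 mitosis genes. Slopes per day were 0.573 for Tdgf1, 0.476 for Epcam, 0.393 for Nanog, 0.34 for Oas2 and 0.266 for Dkc1, on the log2 scale (limma adjusted p = 0.013, 0.0073, 0.014, 0.013 and 0.0098). That of Cdh1 was 0.309 (limma adjusted p = 0.01). Without day 12 the slope called 10 genes rising and 1 falling.

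Compared with 4F, 3F had higher signals of matrix and fibroblast genes and lower signals of ribosome assembly genes. In the limma fit of 18 arrays, 1921 genes differed (9.63%), of which 1150 were higher in 3F (5.77%) and 771 lower (3.87%). After quantile normalization the split was 981 higher and 1048 lower. Matrix proteins were higher in 26 of 38 and lower in none, and fibroblast markers in 11 of 13. Col1a1, Dcn and Lum, a collagen and 2 small proteoglycans, were higher by 0.97, 1.86 and 1.92, so 3F stood between GFP and 4F for these genes. Tnc, the matrix protein tenascin C, gave 11.2, 10.72, 10.86 and 9.2 in 3F beside 4F means of 9.48, 8.06, 7.88 and 7.77 (2.23, limma adjusted p = 0.0012). Of the cytokine list 10 of 32 were higher, with Cxcl5 at 2.40 ± 0.48 (limma adjusted p = 0.0088). The 4F arm has its own 7172 calls against GFP (36%), a comparison that shares the GFP arrays with that of 3F. In it 36 of 38 matrix genes were lower, 39 of 39 mitosis genes and 42 of 53 ribosome assembly genes higher.

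Several of the strongest 3F genes were lower in 4F than in 3F. Sostdc1, Gpr50, Aldh3a1, Akr1c18 and Dpp4 were higher in 3F than in 4F by 2.30, 2.18, 1.86, 1.31 and 0.91, whereas Gna14, at 0.57, was not called (limma adjusted p = 0.24). Akr1c18 means in 4F were 12.15, 11.72, 10.46 and 9.22 on days 3, 5, 8 and 12, close to 3F on day 3 and lower later. Further genes with the largest differences were Ccn3, a secreted matricellular protein, Mfap5, a microfibril protein, the protease gene Prss23 and Tnfrsf11b (osteoprotegerin, a decoy receptor for RANKL), at 2.31, 2.25, 2.09 and 2.09.

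Lower in 3F than in 4F were 23 of 53 ribosome assembly genes and MYC targets, with none higher and a median of -0.60. For this and the counts below, 3.87% of all genes were lower in 3F than in 4F and 5.77% higher. Fbl (fibrillarin), Polr1c, Nop16 and Ncl (nucleolin), of the nucleolus and RNA polymerase I and III, were lower by -0.92, -0.81, -0.75 and -0.73. Of 26 nucleotide and one-carbon genes 9 were lower, such as Shmt1 at -1.22 and Mthfd1 at -1.02, and of 37 oxidative phosphorylation genes 7. By contrast no mitosis gene of 39 and 3 replication genes were called, with medians of -0.17 and -0.35, and in the pluripotency list 1 gene was higher and none lower. The largest single falls were Bex1, Tfrc (the transferrin receptor), Ccnb1ip1 and Slc35f2, at -1.89, -1.84, -1.73 and -1.50.

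On days 3, 5 and 8 the 4F arrays carry replicate numbers and the 3F arrays none, so arm and array set cannot be told apart there. With the RNA amount as a block, 1308 genes were called. Matrix genes higher were then 23, ribosome assembly genes lower 14 and oxidative phosphorylation genes lower 3. The 3F against 4F counts also rested on single 3F arrays. Over all genes the 1921 became 440 without the 3F array of day 5, 591 without that of day 8, 804 without that of day 3 and 1239 without 4F day 5 replicate 1. Matrix genes higher became 10 without day 5 and 12 without day 8, and ribosome assembly genes lower 1, 3 and 3 without days 5, 8 and 3 and 41 without day 12. Fibroblast genes became 4 and 5, and cytokine genes 4 and 2, without days 5 and 8. The nucleotide and oxidative phosphorylation counts were 0 without day 5, and replication genes lower became 15 without day 12. The calls of Ccn3, Gpr50 and Slc35f2 were lost without 3F day 5 (adjusted p = 0.073, 0.072 and 0.11), and those of Cxcl5 and Tfrc without 3F day 8 (adjusted p = 0.055 and 0.1). Those of Col1a1, Lum, Fbl, Ncl, Polr1c, Shmt1 and Mthfd1 also ended with an array left out (adjusted p up to 0.053, 0.053, 0.18, 0.1, 0.054, 0.076 and 0.073).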

How the data were processed

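The data are log2 signals of single-colour expression arrays, deposited by the authors as 1 table of 28853 probe set rows. Per the labels' protocols, total RNA was labelled by the Affymetrix whole transcript sense method from 120 ng (replicate 1) or 300 ng (others). Normalization behind the log2 values, and the genome build, are not given in the sources used here. Values of 4.27 to 14.3 were used as deposited. Of the rows, 21789 carry 1 symbol, 1621 several and 5443 none. They gave 19938 genes, and for 999 with several rows the row of highest mean was used.

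Comparisons used limma 3.58.1 in R 4.3.3, tested on simulated data. Day and arm entered an additive model of 11 arrays (6 residual degrees of freedom, 2.45 prior). Single days used group means of all 31 arrays (12 residual degrees of freedom), in which the lone 3F array is assumed to vary like the replicated groups. The 3F against 4F fit took 18 arrays. Calls required limma's p, adjusted by Benjamini-Hochberg across all genes, to be under 0.05, and day 12 (1 array against 1) a 2-fold difference. The replicate numbers pair samples, since the labels tie replicate 1 to the 120 ng labelling. Replicate differences of GFP days correlated across genes at 0.315, 0.386 and 0.325, where genes are not independent. GFP replicates are labelled as biological, and 3F has none within a day.

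Genes are named by rule: the 4 reprogramming factors, the 12 called genes with 1 sign on all days that rose most and the 12 that fell most, up to 4 called members per list and direction, defining members not called, 8 genes per direction against 4F and the late changes. Further list members were named after their values were seen. Gene lists, members and rules were chosen with earlier results of these data known. Lists were described by counts and medians. Alternatives were quantile normalization, no dim genes, the mean of a gene's rows, a trended fit, blocks, 300 ng arrays alone, and each array left out. Promoters come from RefSeq (GRCm38.p6).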

Additional observations from a re-analysis of the deposited data

Results flagged for a closer look

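The 3F minus GFP difference of 3 genes was larger on days 8 and 12 than on days 3 and 5 in a test of the change itself, an interaction term in limma with 11 arrays. AA467197 gave 5.08, 5.43, 7.37 and 7.87 in 3F on days 3, 5, 8 and 12 and 5.0 to 5.23 in GFP, a change of 2.35 (limma adjusted p = 0.036). Ifi27l2a, an interferon-stimulated gene, gave 5.21, 5.28, 7.47 and 7.56 in 3F and 5.2 to 5.69 in GFP, a change of 1.96 (limma adjusted p = 0.0061). Tac2, which encodes the precursor of neurokinin B, gave 5.05, 4.97, 6.38 and 6.48 in 3F and 4.84 to 5.02 in GFP, a change of 1.41 (limma adjusted p = 0.036). In each of the 3, the 3F arrays of days 3 and 5 lay in or close to the GFP range and those of days 8 and 12 above it. All 3 calls ended without the 3F array of day 3 or 12, GFP day 5 replicate 2 or GFP day 12.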

How the results depend on the processing

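Over 4 days, the 3254 calls of 3F against GFP kept within 1.5 times of that count under quantile normalization, without dim genes, with a trended fit and with the RNA amount as a replicate block (2878). They were 1804 among arrays of 300 ng, 810 with a 2-fold minimum added, and 1769 to 3413 with 1 array left out. The block of 3 sets, in which 3F meets GFP through day 12 alone, gave 2769, of which 1610 were shared. On days 3, 5 and 8 the calls numbered 652, 978 and 2086. They were 988, 1506 and 3214 with the RNA amount as a block, and 295, 469 and 996 within 11 arrays. With a GFP array left out they were 307 to 776, 588 to 691 and 1333 to 2295. The late change called 3 genes, 0 without dim genes, 35 with a trended fit, 829 as a slope, and 0 to 449 with 1 array left out. The 1921 calls against 4F were 440 to 2848 with 1 array left out. The Klf4 difference of 0.08 was 0.00 with the block of 3 sets and -0.05 (without 3F day 8) to 0.23 with 1 array left out. Of 138 named genes, 46 lost their call without the 3F array of day 8, 50 among arrays of 300 ng, 42 with the block of 3 sets and 18 with the RNA amount as a block. No called gene turned its direction. The number of arrays, and signals near background for the dimmest genes, limit what can be called.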

Other observations

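Lists of markers of other cell types held few called genes in 3F, except for the neural list on the higher side and chondrocyte and bone on the lower. Of 25 neural markers 7 were higher in 3F than in GFP by limma (28%, against 8.78% of all genes), with a list median of 0.04. Stmn2, a tubulin-binding protein of neurons, gave 10.79, 10.0, 9.36 and 9.43 in 3F on days 3, 5, 8 and 12 against 5.54 to 8.94 in GFP, and Nefl, the light neurofilament, gave 7.42, 7.66, 7.4 and 7.45 against 4.9 to 5.6. Neither overlapped with GFP, and the differences were 3.15 and 2.23. Nes (nestin) and Gap43, a growth cone protein, were higher by 1.88 and 1.40, the former call being lost without the 3F array of day 5 or 8 (adjusted p up to 0.069). The neural list's mean signal was 6.4 to 6.48 in 3F and 5.9 to 6.12 in GFP.

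Cxcr4, the receptor of Cxcl12, was the 1 called gene of 17 mesendoderm markers, with 9.4, 9.35, 8.42 and 9.98 in 3F against 5.54 to 6.32 in GFP (3.33 ± 0.26, limma adjusted p = 0.00013). Other single genes of this kind were Hbb-y, an embryonic globin, with 8.53, 8.57, 8.35 and 7.46 in 3F against 4.79 to 5.32 in GFP, and Laptm5, a lysosomal protein of blood cells, with 8.04, 8.29, 8.43 and 9.0 against 5.68 to 5.91. Tek, the angiopoietin receptor, gave 8.5, 9.0, 9.3 and 9.21 against 5.63 to 7.47, and Perp, a desmosome protein of keratinocytes, 9.87, 9.94, 9.44 and 9.09 against 6.17 to 7.88. Each was the leading rise of its list, the differences being 3.17, 2.61, 2.62 and 2.76, and none overlapped. Whole lists are set against 8.78% of all genes higher and 7.54% lower. Keratinocyte markers gave 3 higher of 27 (11.1%). That count was 1 without the 3F array of day 8, 5 without that of day 3 or GFP day 3 replicate 1, and 7 with the RNA amount as a replicate block. Macrophage markers gave 2 higher (8.33%) and 1 lower (4.17%) of 24, and endothelial markers 1 higher (5.26%) and 2 lower (10.5%) of 19. Red blood cell markers gave 1 higher and 1 lower of 12 (8.33% each), trophectoderm and primitive endoderm 1 higher (5%) and 2 lower (10%) of 20, and germ cell none of 20. Skeletal muscle gave 1 higher (4.35%) and 3 lower (13%) of 23, and adipocyte 2 higher and 2 lower of 16 (12.5% each). Chondrocyte and bone gave 1 higher (6.25%) and 4 lower (25%) of 16. The lower ones were led by Comp, a cartilage matrix protein, at -1.73, a call lost with any of 8 arrays left out (adjusted p up to 0.18). The 4 lower became 1 without the 3F array of day 5 or 8, and the 2 lower adipocyte genes became 0. The macrophage list's mean signal was 5.58 to 5.7 in 3F and 5.56 to 5.77 in GFP, and that of germ cells 5.01 to 5.26 and 5.04 to 5.13.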
